A study of Homo sapiens with 16 samples.

Results

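The expression of 8 genes of the YAP pathway was followed in HT1080 cells carrying an inducible XIST transgene. The genes were YAP1 and WWTR1, which code for the co-activators YAP and TAZ, TEAD1, which codes for their DNA-binding partner, and the target genes CTGF, CYR61, ANKRD1, AMOTL2 and AXL. They were chosen by name as genes of this pathway, and all 8 were found among the 22892 genes of the HiSeq table and the 25606 genes of the NextSeq table. HT1080 is a human fibrosarcoma cell line with a fibroblast-like character. All cells constitutively expressed the Tet repressor and carried a construct at an FRT site, on 1p, 8p or 12q. In the XIST cells doxycycline (DOX) switched on transcription of XIST, the long non-coding RNA that silences the inactive X chromosome. The question of the study was how the place of integration affects silencing by XIST.

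The HiSeq table held 6 RNA-seq libraries: 8p XIST No DOX, 2 replicates of 8p XIST DOX, 1p XIST DOX, 12q XIST DOX and a 1p vector library with DOX, whose title names a vector and not XIST. The NextSeq table held 4 libraries, with and without DOX at 1p and at 12q. DOX was given for 5 days. The 2 8p DOX replicates came from separate clones, and the 8p library without DOX from 1 clone, so that clone and DOX are mixed at 8p. Each integration site was represented by one or a few single-cell clones, and the names of the libraries do not show that the 1p libraries with and without DOX, or the 12q libraries of both tables, came from the same clone. The cells with the chromosome 12 site came from another Tet repressor subclone than the rest, so that site, clone and subclone cannot be told apart. The study's methods also describe rearranged chromosomes in this line. They include a deletion on chromosome 1, a translocation between chromosomes 1 and 4, isochromosomes of chromosome 3 and a translocation between chromosomes 3 and 11. Chromosome 3 was unstable in some clones. WWTR1 and AMOTL2 lie on chromosome 3, and YAP1 and TEAD1 on chromosome 11. CYR61 lies on chromosome 1, which also carries the 1p site, and whether XIST silenced it there was not tested.

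YAP and TAZ are co-activators that do not bind DNA themselves. The Hippo kinases MST and LATS phosphorylate them and so keep them in the cytoplasm, whereas on stiff or sparse substrates they enter the nucleus and bind TEAD proteins at the promoters and enhancers of growth and matrix genes. CTGF, CYR61 and ANKRD1 are the transcripts most used as a readout of YAP activity in fibroblasts, and transcript levels of YAP1 and WWTR1 themselves do not measure where the proteins are.

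TEAD proteins recognize the letters GGAATG, or CATTCC on the other strand, and 5 of the 6 genes with a promoter entry in RefSeq (GRCh38.p14) had at least 1 such match in the 250 bases before a start site. Promoters with the motif were found for CTGF, ANKRD1, AMOTL2, YAP1 and AXL, no match was found for WWTR1, and TEAD1 and CYR61 had no entry. CTGF had 3 matches, starting 169, 104 and 95 bases before the start, and ANKRD1 had 2, at 220 and 128 bases. AMOTL2 and AXL had 1 match each, only in the second of their 2 promoters, 69 and 212 bases before its start. Of all 35116 windows of this length, 11.9% held at least 1 match, 0.940% at least 2 and 0.0826% at least 3. These shares are per window, whereas the count above is per gene, and WWTR1, AMOTL2 and AXL had 2 windows each. Among the 17 other YAP/TAZ targets examined below, 12 had an entry and 4 had a match. A match is a run of letters and not a measured binding site. The windows of the 3 target genes with the widest range over the HiSeq libraries are printed on the strand of the gene, with the match in capitals, for CTGF (chr6:131951373-131951622, minus strand), ANKRD1 (chr10:90921088-90921337, minus strand) and AMOTL2 (chr3:134374448-134374697, minus strand).
CTGF: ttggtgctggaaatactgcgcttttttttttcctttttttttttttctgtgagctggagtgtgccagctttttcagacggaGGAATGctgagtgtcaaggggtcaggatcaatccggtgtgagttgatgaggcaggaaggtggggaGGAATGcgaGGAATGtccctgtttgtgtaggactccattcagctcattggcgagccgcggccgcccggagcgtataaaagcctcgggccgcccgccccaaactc
ANKRD1: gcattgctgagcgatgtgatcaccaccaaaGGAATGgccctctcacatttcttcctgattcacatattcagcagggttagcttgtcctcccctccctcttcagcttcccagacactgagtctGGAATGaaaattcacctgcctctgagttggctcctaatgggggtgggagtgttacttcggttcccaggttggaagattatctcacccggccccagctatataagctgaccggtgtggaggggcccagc
AMOTL2: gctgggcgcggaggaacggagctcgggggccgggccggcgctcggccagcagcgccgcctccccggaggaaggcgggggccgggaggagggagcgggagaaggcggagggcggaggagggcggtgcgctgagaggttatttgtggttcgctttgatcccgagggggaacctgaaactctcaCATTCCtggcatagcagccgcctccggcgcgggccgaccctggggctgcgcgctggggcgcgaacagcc

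Values are FPKM, fragments scaled to transcript length and to the number of mapped fragments of the library, so that levels are per length. The depth of the libraries is not known from such values. XIST was at 3.38 to 4.17 FPKM in the libraries without DOX, at 21.95 to 99.0 FPKM in the XIST libraries with DOX and at 0.0705 FPKM in the vector library, so that none of the 10 libraries went against its label. Of 8 mesenchymal markers 7 averaged at least 1 FPKM in both tables, with sums of 2985 to 4291 FPKM per HiSeq library and 3546 to 5263 FPKM per NextSeq library, whereas THY1 was below this level. The 3 blood markers summed to at most 0.227 FPKM, with the leukocyte gene PTPRC listed at 0 in every library. The 3 endothelial markers summed to 0.333 to 5.88 FPKM in HiSeq and 0.822 to 7.71 FPKM in NextSeq libraries, the 12q libraries being the highest through CDH5, at 5.44 to 7.06 FPKM, while KDR did not exceed 0.0566 FPKM. As these are bulk samples, fewer cells of a type and less RNA per cell cannot be told apart. The 5 epithelial markers summed to 0.321 to 1.12 FPKM in HiSeq and 1.07 to 6.54 FPKM in NextSeq libraries, the highest sum being that of the 12q DOX library, in which EPCAM was at 2.38 FPKM and CDH1 at 1.38 FPKM. In the other 9 libraries EPCAM did not exceed 0.0497 FPKM and CDH1 did not exceed 0.0163 FPKM.

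**Figure D1:**
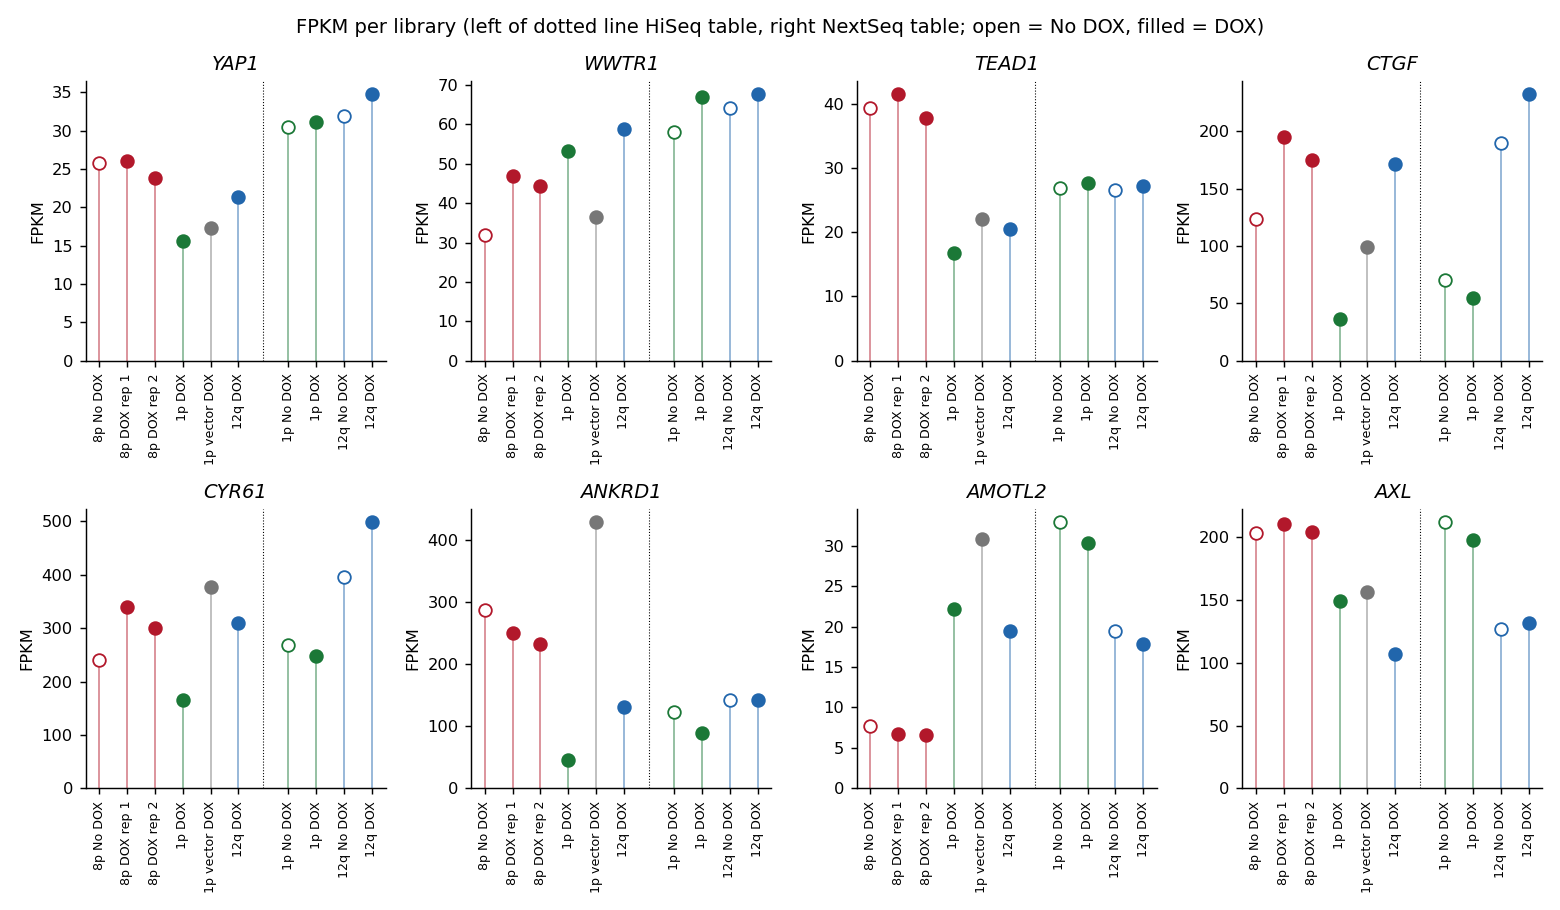
FPKM of the 8 genes (y axis, linear from 0) in each of the 10 libraries (x axis), coloured by integration site, with the vector library in grey. The 1p XIST DOX library was the lowest of its table for CTGF, CYR61 and ANKRD1 in both tables, and the 3 8p libraries were the lowest for AMOTL2.

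The co-activators had narrower ranges than CTGF, CYR61 and ANKRD1 in both tables. YAP1 (chr11:101486401-101609364 on hg18) was at 25.8 FPKM in 8p No DOX, 26.0 and 23.8 FPKM in 8p DOX, 15.7 FPKM in 1p XIST DOX, 17.4 FPKM in 1p vector DOX and 21.4 FPKM in 12q XIST DOX. In the NextSeq table it was at 30.5 FPKM in 1p No DOX, 31.2 FPKM in 1p DOX, 32.0 FPKM in 12q No DOX and 34.8 FPKM in 12q DOX. All 3 8p libraries were above the other HiSeq libraries, and the gap between neighbouring NextSeq libraries was in no case larger than the gap between the 8p DOX replicates.

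WWTR1 (chr3:150717711-150903750 on hg18) was more abundant than YAP1 in all 10 libraries. It was at 32.0 FPKM in 8p No DOX, 46.8 and 44.4 FPKM in 8p DOX, 53.2 FPKM in 1p XIST DOX, 36.4 FPKM in 1p vector DOX and 58.8 FPKM in 12q XIST DOX. The NextSeq libraries had 58.0 FPKM in 1p No DOX, 66.9 FPKM in 1p DOX, 64.0 FPKM in 12q No DOX and 67.6 FPKM in 12q DOX. The lowest HiSeq library was thus the one 8p library without DOX, next to it the vector library, and the 8p DOX libraries lay among the others. The gene overlaps WWTR1-AS1, which did not exceed 0.573 FPKM in the HiSeq table.

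TEAD1 (chr11:12652544-12922860 on hg18) separated the 8p libraries from the rest. It was at 39.3 FPKM in 8p No DOX, 41.5 and 37.8 FPKM in 8p DOX, 16.8 FPKM in 1p XIST DOX, 22.1 FPKM in 1p vector DOX and 20.5 FPKM in 12q XIST DOX. The 4 NextSeq libraries lay between 26.5 and 27.7 FPKM, and no gap between neighbours in this order exceeded that between the 8p DOX replicates.

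CTGF (chr6:132311009-132314211 on hg18), which codes for a secreted matricellular protein, ranged over 5.42-fold in the HiSeq table and 4.26-fold in the NextSeq table. It was at 123 FPKM in 8p No DOX, 194 and 175 FPKM in 8p DOX, 35.9 FPKM in 1p XIST DOX, 99.2 FPKM in 1p vector DOX and 171 FPKM in 12q XIST DOX. In the NextSeq table it was at 70.4 FPKM in 1p No DOX, 54.5 FPKM in 1p DOX, 189 FPKM in 12q No DOX and 232 FPKM in 12q DOX. The XIST libraries of the 1p site were the lowest in both tables, and 12q XIST DOX was below 8p DOX replicate 2 by less than the 8p DOX replicates differed from each other.

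CYR61 (chr1:85819031-85822236 on hg18), a matricellular protein of the same family, was the most abundant of the 8 transcripts in 8 of the 10 libraries. It was at 241 FPKM in 8p No DOX, 340 and 300.5 FPKM in 8p DOX, 166 FPKM in 1p XIST DOX, 378 FPKM in 1p vector DOX and 310 FPKM in 12q XIST DOX. The NextSeq libraries had 269 FPKM in 1p No DOX, 248 FPKM in 1p DOX, 396 FPKM in 12q No DOX and 499 FPKM in 12q DOX. As for CTGF, 1p XIST DOX was the lowest and the 12q NextSeq libraries lay above the 1p libraries, but the vector library was the highest of the HiSeq table.

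ANKRD1 (chr10:92661836-92671012 on hg18), which codes for an ankyrin repeat protein of the nucleus and the sarcomere, had the widest range of the 8 genes, 9.53-fold among the HiSeq libraries. It was at 288 FPKM in 8p No DOX, 251 and 232 FPKM in 8p DOX, 45.0 FPKM in 1p XIST DOX, 428 FPKM in 1p vector DOX and 131 FPKM in 12q XIST DOX. In the NextSeq table it was at 123 FPKM in 1p No DOX, 89.3 FPKM in 1p DOX, 142.5 FPKM in 12q No DOX and 142.7 FPKM in 12q DOX. The extremes of the HiSeq table were thus both libraries of the 1p site, the vector library at the top and the XIST library at the bottom.

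AMOTL2 (chr3:135556879-135576096 on hg18), a target whose angiomotin family protein binds and retains YAP, was the least abundant of the 8 genes in the 8p libraries. It was at 7.69 FPKM in 8p No DOX, 6.77 and 6.62 FPKM in 8p DOX, 22.2 FPKM in 1p XIST DOX, 30.8 FPKM in 1p vector DOX and 19.5 FPKM in 12q XIST DOX. The NextSeq libraries had 32.9 FPKM in 1p No DOX, 30.3 FPKM in 1p DOX, 19.4 FPKM in 12q No DOX and 17.9 FPKM in 12q DOX. The 8p libraries were far below all others, and the 12q libraries were below the 1p libraries in both tables.

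AXL (chr19:46416947-46459511 on hg18), a receptor tyrosine kinase, was at 203 FPKM in 8p No DOX, 211 and 204 FPKM in 8p DOX, 149 FPKM in 1p XIST DOX, 156 FPKM in 1p vector DOX and 107 FPKM in 12q XIST DOX. The NextSeq libraries had 212 FPKM in 1p No DOX, 198 FPKM in 1p DOX, 127 FPKM in 12q No DOX and 131 FPKM in 12q DOX. The 12q libraries were the lowest in both tables.

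To determine how the 8p cells differed in the YAP pathway, the 3 8p libraries were compared with the 3 other HiSeq libraries. TEAD1 was higher in 8p, with a mean of 39.5 ± 1.82 FPKM (SD, n = 3) against 19.8 ± 2.74 FPKM, and AMOTL2 was lower, with 7.02 ± 0.576 FPKM against 24.1 ± 5.90 FPKM, or 3.44-fold. These were the 2 of 8 genes called at an adjusted p under 0.05 (limma on log2(FPKM + 1), Benjamini-Hochberg), where 5.17% of all 11357 genes tested were called, 4.1% higher and 1.07% lower. The 8p group joined libraries with and without DOX and the other group joined 3 different clones with DOX, so that this contrast is one of clones. The p-values here and below measure only the spread left between the libraries of each fit. At 8p it includes the spread between clones.

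The median of all genes tested was higher in the 8p libraries by 0.22 on the log2 scale, and differences are therefore also given after equalising the library medians. The difference of TEAD1 was 0.97 ± 0.15 (log2, SE; adjusted p = 0.0228 by limma), and 0.76 with equalised medians (adjusted p = 0.0424). That of AMOTL2 was -1.62 ± 0.19 (adjusted p = 0.00956 by limma), and -1.84 with equalised medians (adjusted p = 0.0113). Over all genes, 466 were called higher and 121 lower. With equalised medians 3.94% of genes were called, of which 192 (1.69%) were higher and 255 (2.25%) lower, and TEAD1 and AMOTL2 were among them. Leaving out 1 8p library ended the call of TEAD1 in all 3 cases, with an adjusted p of 0.060 without 8p No DOX, 0.148 without 8p DOX replicate 1 and 0.115 without replicate 2 by limma. The call of AMOTL2 was lost without 8p DOX replicate 1 (adjusted p = 0.062) or replicate 2 (adjusted p = 0.058 by limma).

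YAP1 and AXL were also above all other HiSeq libraries in each 8p library, by 0.46 (adjusted p = 0.109) and 0.60 (adjusted p = 0.0793) on the log2 scale, and did not pass the limma test. With equalised medians the differences were 0.25 (adjusted p = 0.312) for YAP1 and 0.38 (adjusted p = 0.322 by limma) for AXL. Without the 12q library, where 1737 genes were called, they passed, with an adjusted p of 0.041 for YAP1 and 0.045 for AXL. In all, the values of 4 of 8 genes did not overlap between the groups, as did those of 37.2% of all genes, 31.8% being higher and 5.38% lower in 8p, or 27.9% with equalised medians, when the same 4 genes did not overlap. The differences of CTGF, at 0.92 (adjusted p = 0.274 by limma), and of ANKRD1, at 0.90 (adjusted p = 0.421), were close to that of TEAD1 but lay within the spread of the other HiSeq libraries. Leaving out 1 library moved CTGF to 0.31 without 1p XIST DOX and to 1.42 without 12q XIST DOX, and ANKRD1 to 0.11 without 1p XIST DOX and to 1.72 without 1p vector DOX, with none of these called. CYR61 differed by 0.11 (adjusted p = 0.829 by limma), which became -0.10 with equalised medians and -0.23 without the 1p XIST DOX library, and WWTR1 by -0.25 (adjusted p = 0.491).

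As chromosomes of this line are rearranged, the difference of each gene was set beside those of the genes tested within 5 Mb of it. The 37 neighbours of AMOTL2 had a median difference of -0.24 in 8p, and 6 of them had a difference above 0. The 20 neighbours of WWTR1, on the same chromosome arm, had a median of 0.03, and the 54 within 10 Mb had -0.06. All genes tested had a median of 0.22. Relative to it the neighbours within 5 Mb were at -0.45 for AMOTL2 and -0.18 for WWTR1. The neighbours of the other 6 genes had medians between 0.20 and 0.38, among them 0.37 for the 47 neighbours of TEAD1, of which 43 had a difference above 0. The difference of AMOTL2 was below the median of its neighbours by a further 1.39, and that of TEAD1 was 0.60 above it. Whether the number of copies of these regions differed between the clones was not tested.

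**Figure D2:**
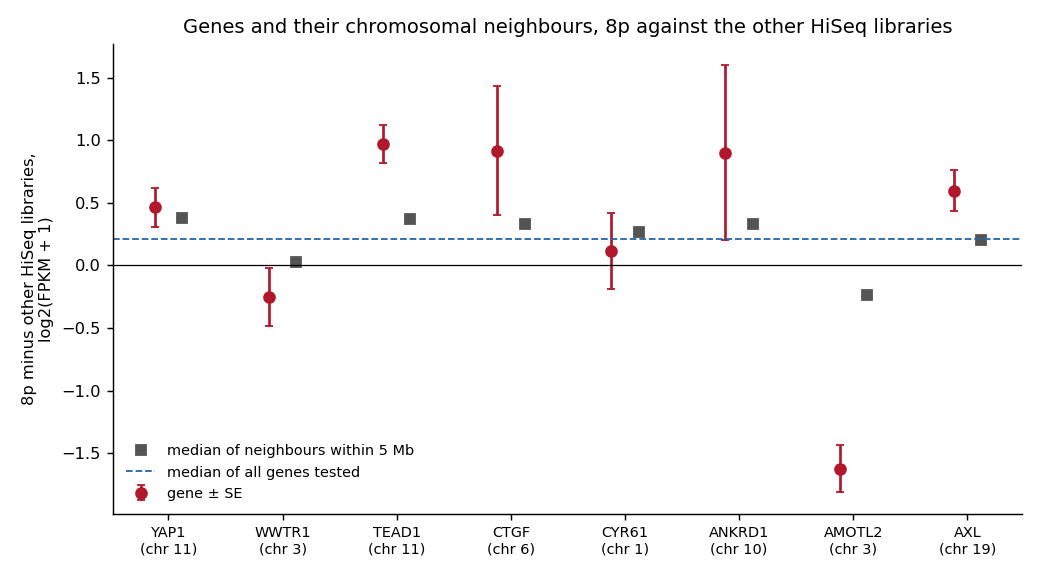
Difference between the 8p and the other HiSeq libraries (y axis, log2(FPKM + 1)) for each of the 8 genes with its SE and for the median of its neighbours within 5 Mb. The neighbours of AMOTL2 had a median below 0, those of WWTR1 had one above 0 but below the median of all genes tested, and AMOTL2 itself lay 1.39 below its neighbours.

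Of the 21 genes tested among Hippo kinases and adaptors, 2 were higher in 8p and 0 were lower, where 4.1% of all genes were called higher and 1.07% lower. The 2 were AMOT, a YAP-binding angiomotin, with a difference of 1.26 (adjusted p = 0.0244 by limma), and SAV1, the scaffold of the MST kinases, with 1.21 (adjusted p = 0.0446). AMOT was at 3.60 to 4.81 FPKM in the 8p libraries and at 0.864 to 1.79 FPKM in the others, the opposite order to its relative AMOTL2. With equalised medians neither AMOT (adjusted p = 0.0548 by limma) nor SAV1 (adjusted p = 0.0545) passed, and the list had 0 higher and 1 lower, the atypical cadherin FAT1 (-1.07, adjusted p = 0.0439), which is named after its value was seen. The 15 other YAP/TAZ targets tested had 3 genes higher and 0 lower, with a median of 0.46 where all genes had 0.22. They were F3, the gene for tissue factor, with 1.64 (adjusted p = 0.0469), GADD45A, a stress-response gene, with 1.40 (adjusted p = 0.00943), and MYOF, which codes for a membrane repair protein, with 0.74 (adjusted p = 0.0361 by limma). With equalised medians GADD45A remained called.

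Among 8 SRF targets tested, which respond to actin through another pathway, FHL2 was higher in 8p by 1.65 (adjusted p = 0.00559) and TAGLN, a smooth muscle actin-binding protein, lower, at -1.82 (adjusted p = 0.0344 by limma). None of 4 TEAD and VGLL partners, 10 immediate-early genes and 6 TGF-beta targets was called by limma, with 1, 3 and 0 at an unadjusted p under 0.05, as were 29.0% of all genes, and the TGF-beta targets had a median of -0.27, with 0 of 6 above 0.

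**Figure D3:**
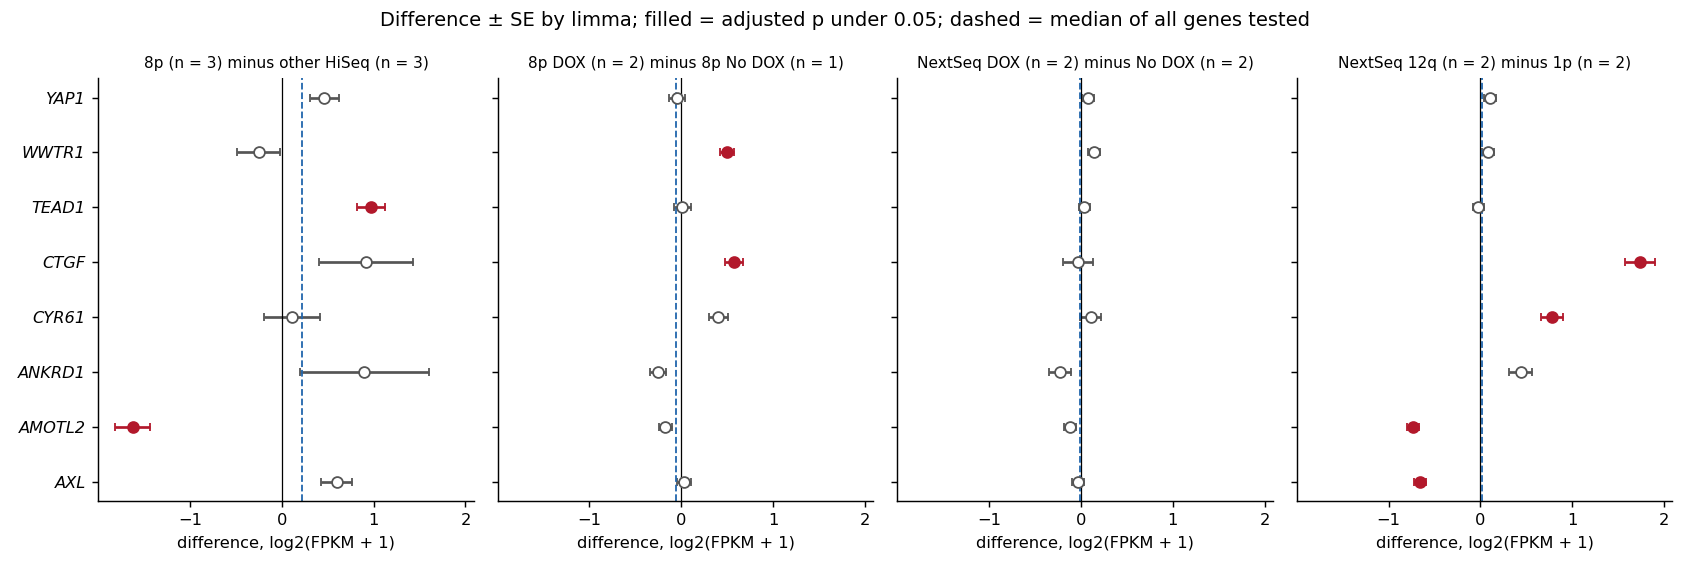
Differences on log2(FPKM + 1) with their SE (x axis) for the 8 genes (y axis) in the 4 comparisons; filled points were called at an adjusted p under 0.05 and the dashed line is the median of all genes tested. TEAD1 and AMOTL2 were called for 8p, CTGF and WWTR1 for DOX in 8p, none for DOX in the NextSeq table, and CTGF, CYR61, AMOTL2 and AXL for 12q against 1p.

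The response to DOX was examined in the 8p cells, where 2 DOX libraries were set against 1 library without DOX. CTGF rose from 123 FPKM to 185 ± 13.6 FPKM (SD, n = 2), or by 49.8%, and WWTR1 rose from 32.0 FPKM to 45.6 ± 1.66 FPKM, or by 42.5%. Both replicates of DOX were above the library without DOX. These 2 of 8 genes were called, where 31.1% of all 11357 genes were, 11.3% higher and 19.8% lower, so that the share was near that of any gene. The differences were 0.58 ± 0.10 for CTGF (log2, SE; adjusted p = 0.0246 by limma) and 0.50 ± 0.08 for WWTR1 (adjusted p = 0.0222). The fit had 1 residual degree of freedom, and the lone library without DOX was assumed to vary like the DOX replicates. Without the filter on low values 15 genes in all were called and 0 of the 8 (adjusted p = 0.137 for CTGF and 0.116 for WWTR1 by limma).

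CYR61 was at 320 ± 27.6 FPKM (SD, n = 2) with DOX against 241 FPKM, a difference of 0.40 (adjusted p = 0.0565 by limma) that was called with equalised medians (adjusted p = 0.025). ANKRD1 had a value of -0.25 (adjusted p = 0.0996) and AMOTL2 of -0.17 (adjusted p = 0.137 by limma), both DOX replicates being below the library without DOX. YAP1, TEAD1 and AXL differed by -0.05, 0.01 and 0.03 on this scale and were not called. Over all genes 1286 were called higher and 2251 lower, or, with equalised medians, 37.4%, of which 2169 (19.1%) were higher and 2080 (18.3%) lower. Of the 3 readout genes, CTGF and CYR61 were thus above and ANKRD1 below the library without DOX in both replicates, with CTGF alone called.

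With DOX in 8p 11.3% of all genes were called higher and 19.8% lower, and the counts of the lists here are descriptions beside these shares. Of 15 other YAP/TAZ targets tested 2 rose and 3 fell with DOX in 8p. Among them PTPN14, a phosphatase that restrains YAP, was higher by 0.47 (adjusted p = 0.0441 by limma), and FJX1 and F3 fell by 0.63 (adjusted p = 0.0194) and 0.38 (adjusted p = 0.0344). Of 21 Hippo kinases and adaptors 3 rose, PTPN14 again among them, and 5 fell. The largest differences were those of WTIP, an Ajuba-family LIM protein (-0.66), TAOK2, a kinase acting upstream of MST (-0.64), and the atypical cadherin FAT1 (-0.54). SRF targets gave 1 rise and 4 falls among 8, led by TAGLN (-0.66), TPM1 (-0.59) and CNN2 (-0.38), and 0 of 4 TEAD and VGLL partners was called by limma, with 2 at an unadjusted p under 0.05, as were 47.3% of all genes. Immediate-early genes gave 3 rises and 0 falls among 10, EGR1 (0.87), DUSP1 (0.74) and JUNB (0.57). EGR1 was at 0.155 FPKM without DOX and at 1.14 and 1.08 FPKM with it, so that it reached the minimum of 1 FPKM only with DOX in these cells. Its place among the 3 rises is therefore a description.

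In the NextSeq table DOX was compared with No DOX over both sites, with the site as a term. The spread in this fit was the difference of the DOX change between the sites. None of the 8 genes was called by limma, and 0 of 8 had an unadjusted p under 0.05. Of all 11397 genes 1 was called, or 0.00877%, and 746 had an unadjusted p under 0.05. The gene called was SNORD88B, a small nucleolar RNA. Between sites the values of CTGF went apart, with a change of -22.6% at 1p and 22.5% at 12q, as did those of CYR61, with -7.85% and 25.8%. ANKRD1 changed by -27.5% at 1p and 0.171% at 12q, and AXL by -6.80% and 3.33%. WWTR1 had a higher value with DOX at both sites, by 15.4% at 1p and 5.60% at 12q, and AMOTL2 a lower one, by -7.87% and -7.94%. YAP1 and TEAD1 were within 8.76% of the library without DOX. None of these single-library changes has a replicate, and the part of the epithelial transcripts of the 12q DOX library, given above, in the 12q changes was not tested. None of the 6 lists of related genes had a gene called by limma, and 2 SRF targets and 2 immediate-early genes had an unadjusted p under 0.05.

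**Figure D4:**
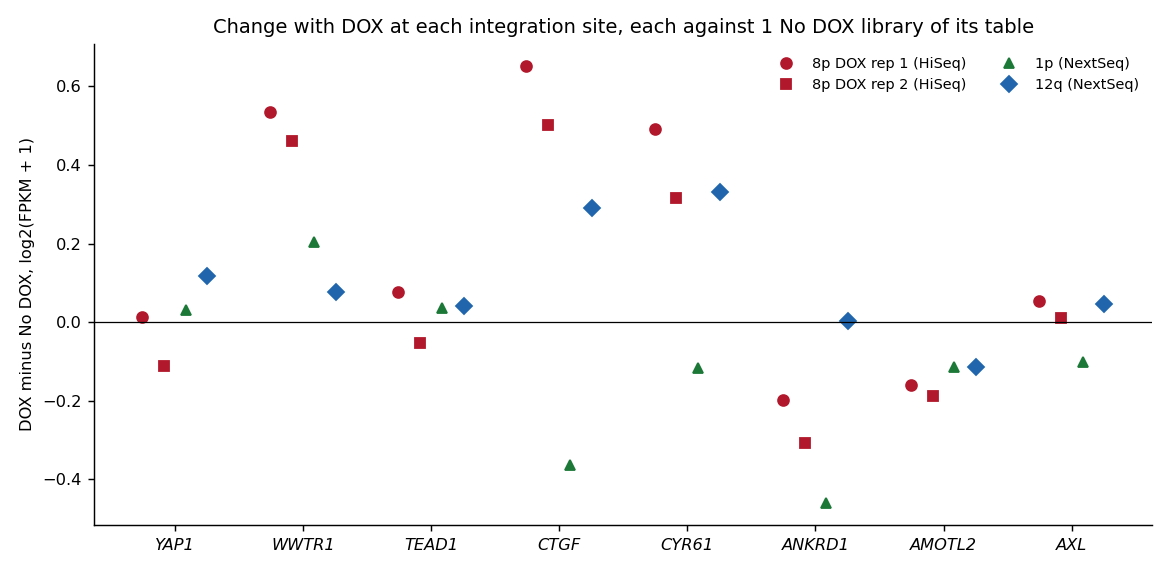
Difference between DOX and No DOX on log2(FPKM + 1) (y axis) for each of the 8 genes (x axis) in the 2 8p DOX replicates, at 1p and at 12q; each point sets 1 DOX library against the No DOX library of its site. CTGF and CYR61 lay above 0 in both 8p replicates and at 12q and below 0 at 1p, and WWTR1 lay above 0 in all.

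To compare the 12q and 1p cells, the NextSeq libraries of both sites were used with DOX as a term. CTGF was higher in 12q, 2.69-fold without DOX and 4.26-fold with DOX, and CYR61 was higher, 1.48-fold and 2.01-fold. AMOTL2 was higher in 1p, 1.69-fold both without and with DOX, and AXL 1.67-fold and 1.51-fold. These 4 of 8 genes were called, where 32.8% of all 11397 genes were, 17.9% higher and 15.0% lower. The values of 6 of 8 genes did not overlap between the sites, as did those of 71.7% of all genes. The differences of 12q minus 1p were 1.74 ± 0.16 for CTGF (log2, SE; adjusted p = 0.00551 by limma), 0.78 ± 0.12 for CYR61 (adjusted p = 0.0139), -0.73 ± 0.06 for AMOTL2 (adjusted p = 0.00497) and -0.66 ± 0.07 for AXL (adjusted p = 0.006). The median of all genes was 0.02, and the medians of the neighbours of these 4 genes within 5 Mb lay between -0.03 and 0.06. In the pair without DOX the differences were 1.42 for CTGF, 0.56 for CYR61 and -0.73 for AXL, with EPCAM listed at 0 in both libraries and CLDN4, another epithelial marker, at 2.96 FPKM in 12q and 1.05 FPKM in 1p. Cell type markers moved with the site as well. Of 7 mesenchymal markers tested 5 were lower and 1 was higher in 12q, with a median of -0.63, and VIM was at 1835 and 1940 FPKM in 12q against 2978 and 2878 FPKM in 1p. CLDN4, the 1 epithelial marker tested, was higher in 12q by 0.77 (adjusted p = 0.027 by limma), and the endothelial marker CDH5 is given above. Their part in the differences of the target genes was not tested.

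ANKRD1 was higher in 12q by 0.44 and narrowly missed the threshold (adjusted p = 0.0536 by limma), passing it with a pseudocount of 0.1 (adjusted p = 0.045) or a minimum of 5 FPKM (adjusted p = 0.040). YAP1 (0.11, adjusted p = 0.248 by limma), WWTR1 (0.08, adjusted p = 0.385) and TEAD1 (-0.02, adjusted p = 0.816) were not called. This fit also had 1 residual degree of freedom, the difference of the DOX change between the sites. With 1 library per site and condition, its p-values do not measure a spread between replicates or clones of a site. Without the filter on low values CYR61 was not called (adjusted p = 0.060 by limma).

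The HiSeq libraries of the same sites, 12q and 1p XIST DOX, had 1 library each and were not tested. CTGF was 4.78-fold, ANKRD1 2.91-fold and CYR61 1.87-fold higher in the 12q library, whereas AXL was at 0.720 and AMOTL2 at 0.879 of the 1p value. The direction was that of the NextSeq table for all 5 target genes. The share of all genes with the same direction in both tables was not computed, so this is a description. In the HiSeq pair 65.0% of all genes had a difference at least as large as AMOTL2 and 24.5% as AXL. The shares were 0.916% for CTGF, 2.01% for ANKRD1 and 6.05% for CYR61. Within the 1p site, the vector library exceeded the XIST library 9.53-fold for ANKRD1, 2.76-fold for CTGF and 2.28-fold for CYR61, with 1 library of each kind. WWTR1 was lower in the vector library, at 0.684 of the XIST library, and XIST, the vector and the clone cannot be told apart there.

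The TEAD family partners differed between 12q and 1p in other members than TEAD1. TEAD2 was at 7.15 and 7.99 FPKM in the 12q NextSeq libraries and at 0.0341 and 0.111 FPKM in those of 1p, a difference of 3.00, and passed the minimum of 1 FPKM only through the 12q libraries, so that its value is a description. In the HiSeq table it was at 5.52 FPKM in 12q and did not exceed 0.802 FPKM in the other 5 libraries. TEAD3 was higher by 0.73 (adjusted p = 0.0165 by limma). Of 20 Hippo kinases and adaptors 5 were higher and 4 lower in 12q, where 17.9% of all genes were called higher and 15.0% lower. The Hippo genes called included the kinase MAP4K4 (0.61), the LATS inhibitor AJUBA (-0.67) and FRMD6 (-0.59), a relative of Merlin.

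Of the 15 other YAP/TAZ targets 3 were higher and 5 lower in 12q, where 17.9% of all genes were called higher and 15.0% lower. The kinase NUAK2 (0.78, adjusted p = 0.0153) was higher, as was RBMS3 (1.02), whose 1p libraries were below 1 FPKM so that its value is a description, and F3 was lower (-1.94, adjusted p = 0.00127 by limma). F3 was at 9.98 and 8.38 FPKM in 12q and at 38.5 and 37.5 FPKM in 1p, opposite to CTGF and like AXL. Of 10 immediate-early genes tested 5 were called higher and 2 lower in 12q, with EGR1 and FOS counted among the 5. Among the 5, ATF3 was higher by 1.30 (adjusted p = 0.00483 by limma). EGR1 (2.04) and FOS (0.96) had higher values but passed the minimum of 1 FPKM only through the 12q libraries. Their place in this count is therefore a description, as is that of RBMS3 among the 3 targets. SRF targets had 1 higher, VCL (0.37), and 3 lower of 8, led by TPM1 (-1.68) and FHL2 (-0.76).

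**Figure D5:**
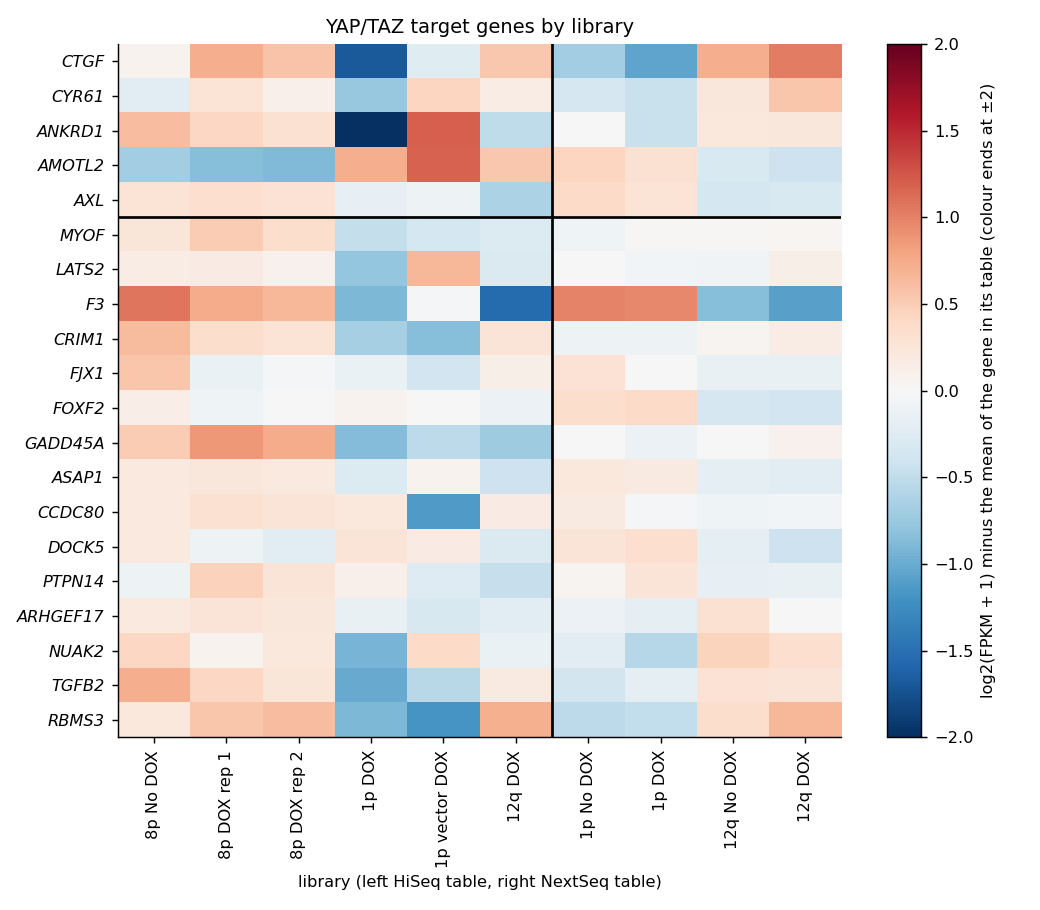
Log2(FPKM + 1) minus the mean of the gene in its table (colour, red higher and blue lower) for the 5 target genes and 15 other YAP/TAZ targets (y axis) in the 10 libraries (x axis). The 1p XIST DOX column of the HiSeq table was blue for CTGF, CYR61 and ANKRD1, and F3 ran opposite to CTGF in the NextSeq table.

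The genes whose pattern was most like that of the readout genes were sought over all 10 libraries, by the root mean square difference of log2(FPKM + 1) after centring each table, among 10196 genes. The nearest to CTGF were GDF15, PAMR1 and DLC1, with 0.177, 0.212 and 0.237, where CYR61 had 0.541, ANKRD1 0.741 and a flat profile 0.848. PAMR1 did not exceed 0.0240 FPKM in the 1p XIST libraries or 3.50 FPKM in any library. In the NextSeq table it passed the minimum of 1 FPKM only through the 12q libraries. At such levels the added 1 shrinks differences. GDF15 was at 54.9 FPKM in 1p XIST DOX and at 251 and 247 FPKM in 8p DOX, with the NextSeq libraries from 47.1 FPKM in 1p DOX to 197 FPKM in 12q DOX. The nearest to CYR61 were JMJD1C, FAM72A and MORN4, with 0.0971, 0.110 and 0.115, where a flat profile had 0.398, nearer than CTGF. MORN4 was also low, at 0.710 to 2.82 FPKM. The nearest to ANKRD1 were HDAC9, RND3 and CD274, with 0.321, 0.387 and 0.412, where a flat profile had 0.822, and CD274 was at 5.67 FPKM in 1p XIST DOX and 42.1 FPKM in 1p vector DOX. The 10 libraries share clones and tables, and the likeness is a description without a test.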

How the data were processed

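RNA-seq of poly(A)-selected, stranded libraries was analysed in 10 libraries; the ChIP-seq samples were not used here. Per the labels, the authors aligned reads to hg18 with TopHat and Bowtie and deposited FPKM from Cufflinks, 1 table for 6 HiSeq and 1 for 4 NextSeq libraries; versions and annotation are not given in the sources used here. FPKM hold no counts, so depth is unknown and no interval or floor is given. The tables were compared only within themselves.

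Repeated symbols took up 739 lines of the HiSeq table and 882 of the NextSeq table, and these, 22 lines per table with a date for a symbol and 2 NextSeq lines lacking a value were dropped. Differences were tested with limma 3.58.1 in R 4.3.3 (lmFit, eBayes with trend, Benjamini-Hochberg over all genes tested) on log2(FPKM + 1). Tested were the 11357 HiSeq and 11397 NextSeq genes averaging 1 FPKM or more. Such differences understate the change of low genes. The filter uses the average over all libraries of the table, and all 8 genes passed it in both. Folds and percentages were computed from FPKM without a pseudocount. Neighbours were genes tested with midpoints within 5 Mb on hg18. Values were computed in Python 3.11.15 with pandas 2.3.3, numpy 2.4.6 and scipy 1.17.1, and the fits were tested on simulated data. With the spread drawn from the fitted prior, the share of false calls stayed near the nominal level, but with each gene's own moderated spread as the truth it was well above it in the 3 comparisons that rest on 1 residual degree of freedom.

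The 8 genes and the 6 pathway lists were chosen with earlier results of these data known. LATS2 and PTPN14 are in both the Hippo list and the list of other YAP/TAZ targets and are counted in each. From each list at most 3 genes with the largest difference among those called were named per comparison (the TGF-beta list is given for the 8p comparison only, as 1 of its genes is not reported here), and 3 alike genes for each of CTGF, CYR61 and ANKRD1. The alternatives were another pseudocount, other filters, equalised medians, leaving out libraries and single sites or conditions.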

Additional observations from a re-analysis of the deposited data

Results flagged for a closer look

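The change with DOX in the NextSeq table had opposite signs at 1p and 12q for CTGF, CYR61, ANKRD1 and AXL. The share of all genes with opposite signs was not computed, so this is a description and not a result about these genes. The change at 12q minus that at 1p, on log2(FPKM + 1), was 0.65 for CTGF, 0.45 for CYR61, 0.46 for ANKRD1 and 0.15 for AXL. Each site had 1 library with and 1 without DOX, so the difference between the sites was not tested. The value of ANKRD1 at 12q was 0.171% above the library without DOX, or 0.0025 on this scale. CTGF, CYR61 and AXL had higher values with DOX in both 8p replicates, as at 12q.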

How the results depend on the processing

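The number of genes called moved by more than 1.5 times in several settings. For 8p against the other HiSeq libraries, 587 genes were called, 320 without the filter on low values, and 29 to 1737 when 1 library was left out, with 29 without 8p DOX replicate 1, 40 without replicate 2, 160 without 8p No DOX, 231 without 1p XIST DOX, 319 without 1p vector DOX and 1737 without 12q XIST DOX. Without the filter, 15 in place of 3537 genes were called for DOX in 8p, 0 in place of 1 for DOX in the NextSeq table, where 746 genes had an unadjusted p under 0.05 with the filter, and 1971 in place of 3742 for 12q against 1p. The cause was not tested. With FPKM scaled to equal medians the log2 range over the HiSeq libraries moved from 0.70 to 0.46 for YAP1, 0.86 to 1.02 for WWTR1, 1.26 to 1.02 for TEAD1, 2.41 to 2.16 for CTGF, 3.22 to 3.33 for ANKRD1, 2.06 to 2.36 for AMOTL2 and 0.97 to 0.87 for AXL, and over the NextSeq libraries from 0.73 to 0.81 for AXL. Signs turned with equalised medians for CYR61 in 8p against the others (-0.10), for YAP1 with DOX in 8p (0.018), and for CTGF (0.0014) and AXL (0.0105) with DOX in the NextSeq table, and without 1p XIST DOX for CYR61 in 8p against the others, whose value ran from -0.23 to 0.36 as 1 library was left out. None of these 5 was called in either setting. With DOX in 8p, signs also turned for YAP1 without replicate 2 (0.01) and for TEAD1 without replicate 1 (-0.05). Of the other values of single genes, 195 kept their direction and their side of the threshold, 8 lost and 6 gained a call, and 16 differences from a single pair of libraries moved, 4 of them with a turned sign. The HiSeq libraries were not paired, as the labels do not show which 8p DOX library shares a clone with the one without DOX. Site and DOX were terms of the NextSeq fits, so that DOX was compared there within each site. Depth is unknown, and 3 of the 4 comparisons rest on 1 residual degree of freedom.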
